A study of Homo sapiens with 2 samples.

Results

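Glycosyltransferases of the fucosyl-, sialyl- and mucin-type pathways were compared between an erlotinib-sensitive lung cancer cell line and its resistant derivative. Members were all genes of the FUT, ST3GAL, ST6GAL, ST6GALNAC, ST8SIA, GALNT, B3GNT, B4GALT, B3GALT, GCNT and MGAT symbol families that had a probe set with 1 gene symbol, and 78 of the 19775 genes on the arrays met this rule. They had 190 probe sets, and where a gene had several, the one whose log2 signals had the highest mean stood for it, a choice that does not use the difference between the cell lines. HCC4006 is a human NSCLC (non-small cell lung cancer) line with an EGFR exon 19 deletion that is sensitive to erlotinib, an inhibitor of the EGFR tyrosine kinase. HCC4006ER cells carry the same deletion, are labelled erlotinib resistant with an EMT (epithelial-mesenchymal transition) phenotype, and were derived from HCC4006 by 3 months of exposure to erlotinib rising from 3 nM to 4 μM, as a bulk population and not a single clone. Both lines were grown for 48 hours without further treatment, and RNA of 3 preparations per line was mixed and hybridized to 1 Affymetrix HG-U133 array each.

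The values are MAS5 signals on a linear scale. Each line has 1 array and no replicate, so differences are given as values with no test, and they describe these 2 arrays. The background was set by 127 probe sets for olfactory and bitter taste receptors, genes of sensory tissues. Their 95th percentile was 96.2 for HCC4006, whose array is called the parental array here, and 91.6 for HCC4006ER, whose array is called the resistant array. Where only the dimmer signal lay under its level, the fold was computed against the level and is written "at least", and where both did no fold is given. The log2 fold is the resistant over the parental array, and the study's threshold of 1.5-fold was used. Probe sets of 1 gene disagreed with a pooled SD of 0.27 in the log2 fold over 5264 genes, and with 0.31 over the 28 members that had several probe sets above background on both arrays.

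The epithelial genes EPCAM, CDH1, KRT7, KRT8, KRT18 and KRT19 were all above background on both arrays and within 1.5-fold. Of the mesenchymal genes, VIM, CDH2 and FN1 were 1.53-, 2.05- and 1.66-fold higher on the resistant array, while ZEB1, the repressor that the study centres on, read 42.5 and 53.1 and was not above background on either array. The signals of ZEB1 and CDH1 go against the EMT label, and the labels are used here only as names. The study itself reports strongly higher ZEB1 and loss of E-cadherin (CDH1) in HCC4006ER, on its microarray, by quantitative RT-PCR and in protein. The deposited values of these genes thus differ from the study's own results, and the reason was not tested. Of the lung lineage genes, NKX2-1 was not above background on either array, NAPSA was just above it on the parental array alone (97.3 and 66.9) and SFTPB on the resistant array alone (69.4 and 138, at least 1.44-fold higher). Of the markers of other cell types, 1 of 5 for fibroblasts was above background (COL1A1, 1.63-fold higher, though only 1 of its 3 probe sets above background was higher). So were 1 of 2 measured for immune cells (CD3E, 98.0 and 58.6) and 1 of 3 for endothelium (PECAM1, 244 and 229, in 1 of its 5 probe sets). Their part in the values below was not tested. In RNA of a whole culture, fewer cells that express a gene and less RNA of it per cell cannot be told apart.

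Most proteins of the cell surface carry sugar chains that are built in the Golgi apparatus, sugar by sugar. The enzymes each add 1 kind of sugar, mostly in 1 linkage. Mucin-type O-glycans start when a polypeptide GalNAc-transferase (GALNT) puts GalNAc on serine or threonine. Other enzymes then add galactose and branches, lengthen the chains with N-acetyllactosamine, and end them with fucose or sialic acid. N-glycans are branched by the MGAT enzymes and share the enzymes of elongation and capping. In epithelia and in carcinomas these caps make up the Lewis and blood group antigens, the sialylated T and Tn antigens and the mucin epitopes used as serum tumor markers.

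Of the 78 members, 53 were above background on at least 1 array, 50 of them on both, and 25 were not above background on either. Of the 53, 12 (22.6%) were lower past 1.5-fold on the resistant array, against 11.2% of the 11896 genes above background. In the other direction, 4 members (7.55%) were higher, against 7.99% of those genes. The remaining 37 lay within 1.5-fold. The share of lower members was thus about double the background share, and that of higher members was near it. With no filter on dim signals the lower shares lay closer, at 25.6% of the 78 members against 23.0% of all genes. When the arrays were instead given equal medians (median scaling), which moves every log2 fold up by 0.14, 10 members were lower and 8 were higher. These were 18.9% and 15.1% of the 53, against 7.40% and 12.4% of all genes above background. Of the members past the threshold, 55.6% were then lower in place of 75.0%. Over all genes the same scaling changed this share from 58.3% to 37.4%. The median log2 fold of the 53 members was -0.13 and that of all genes above background was -0.04.

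Past 2-fold were 9 members, 7 lower (13.2% of the 53) and 2 higher (3.77%), against 3.56% lower and 2.38% higher among all genes above background. GALNT14 was 8.03-fold lower, ST3GAL1 at least 6.43-fold, GCNT3 3.47-fold, GALNT10 2.54-fold, FUT3 2.23-fold, GALNT18 2.09-fold and FUT6 2.04-fold. ST6GALNAC5 was 2.43-fold and GALNT5 2.37-fold higher. These 9 include initiating, branching, fucosylating and sialylating enzymes. The B4GALT, B3GALT, B3GNT and MGAT families, with 2 to 7 genes each above background, had no member past 2-fold. Of all genes above background 5.94% were past it, so none among so few genes is near that share.

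**Figure D1:**
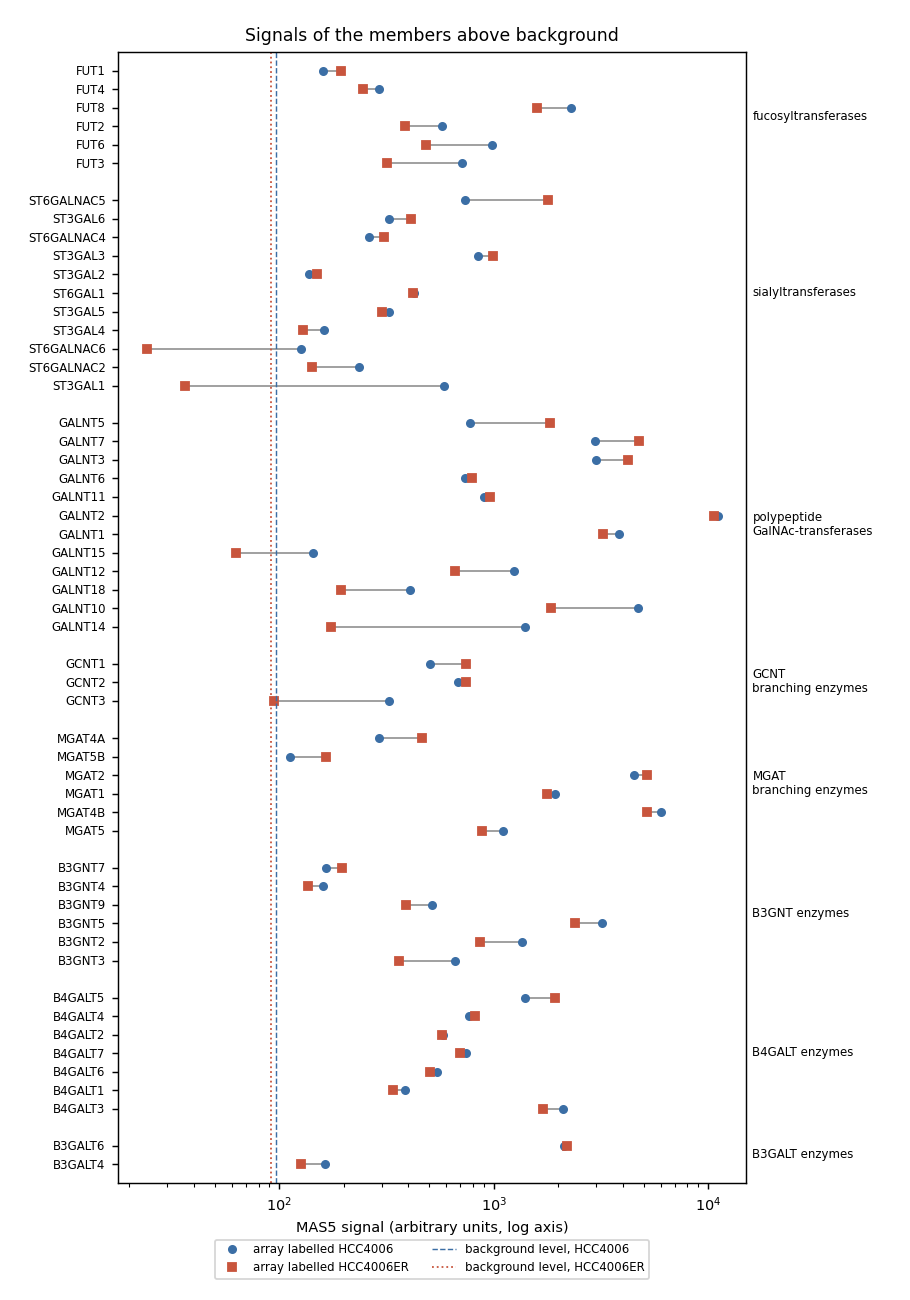
MAS5 signal on a log axis for the 53 members above background, grouped by family and ordered by log2 fold within it, with HCC4006 shown as circles and HCC4006ER as squares. Vertical lines mark the background levels of 96.2 and 91.6, and the squares of ST3GAL1, ST6GALNAC6 and GALNT15 lie under them. Signals of different genes come from different probe sets, so only the distance between the points of 1 gene can be read.

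The polypeptide GalNAc-transferases, the enzymes that start mucin-type O-glycosylation, had the largest share past the threshold, 58.3% against 19.1% of all genes above background. This share was 33.3% for the FUT, GCNT and B3GNT genes, 27.3% for the sialyltransferases and 16.7% for the MGAT genes, each from few genes. Of 17 GALNT genes measured, 12 were above background. Of these 5 were lower (41.7%), 2 were higher (16.7%) and 5 lay within 1.5-fold. GALNT14, which is known for glycosylating death receptors of the TRAIL pathway, read 1404 on the parental and 175 on the resistant array in its 1 probe set. It stayed above background on the resistant array, so that its 8.03-fold difference is measured on both sides. GALNT10, an enzyme that prefers peptides already carrying GalNAc, read 4688 on the parental and 1846. on the resistant array Its other probe sets read 2478 and 1120, and 370 and 226, and all of them were lower on the resistant array past 1.5-fold. GALNT12, an enzyme known from the colon, was lower by a similar factor in both of its probe sets, at 1242 against 657 and at 705 against 390.

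GALNT18 read 405 on the parental and 194 on the resistant array, and its other probe set was not above background. GALNT15 read 144 on the parental array and 63.0, under the background level, on the resistant array, which makes it at least 1.58-fold lower. It was the least secure of the lower members: with background levels at the 99th percentile of the receptor probe sets its log2 fold was 0.18, since the level of the resistant array then exceeded the parental signal.

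GALNT5 differed the other way, at 772 and 1834, and a further probe set read 350 and 785. The last of its probe sets above background read 183 and 137, a log2 fold of -0.42, so that the probe sets of GALNT5 differed in direction. Averaged over all its probe sets, with those dim on both arrays entered as 0, the log2 fold of GALNT5 was 0.40 and did not pass 1.5-fold. Averaged over its probe sets above background alone it was 0.66 and passed 1.5-fold. GALNT7, which like GALNT10 acts on peptides that already carry GalNAc, was 1.60-fold higher, at 2971 against 4763, and its other probe set read 1039 and 2006. These 2 glycopeptide-preferring enzymes therefore differed in opposite directions between the same arrays.

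GALNT1, GALNT2, GALNT3, GALNT6 and GALNT11 lay within 1.5-fold. GALNT1 and GALNT2, the enzymes present in most tissues, had log2 folds of -0.25 and -0.05, with GALNT2 at 11084 and 10679. The 4 bright probe sets of GALNT1 were split, with log2 folds of -0.25, -0.21, 0.27 and 0.30. GALNT3, known for protecting the hormone FGF23 by glycosylation, read 2995 and 4253, a log2 fold of 0.51 that passed 1.5-fold with median scaling (0.64). GALNT6 had log2 folds of 0.10 and -0.49 in its probe sets, and GALNT11, which modifies NOTCH1, had 0.09. GALNT8, GALNT9, GALNT13, GALNT16 and GALNT17 were not above background on either array.

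**Figure D2:**
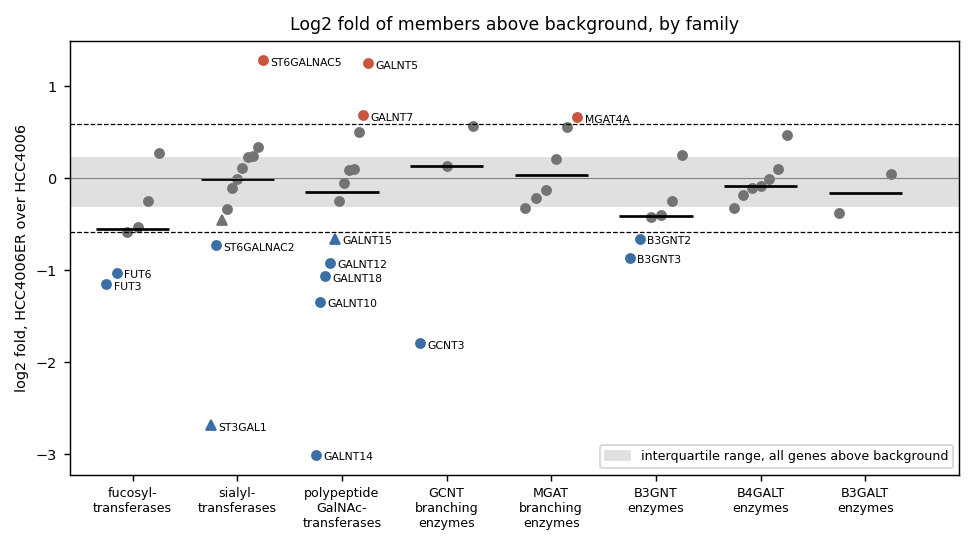
Log2 fold of the 53 members above background by family, 1 point per gene, blue for lower and red for higher past 1.5-fold, with triangles for folds computed against a background level, black bars for family medians, dashed lines at 1.5-fold and a grey band for the interquartile range of all genes above background (-0.31 to 0.22). The GALNT points spread from -3.01 to 1.25, while the 7 B4GALT points stay between -0.32 and 0.47.

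The GCNT enzymes add the GlcNAc branch of core 2 and related O-glycans. GCNT3, the mucin-type branching enzyme of mucus-secreting epithelia, read 326 on the parental and 94.0 on the resistant array, a level just above the background of 91.6. It was 3.47-fold lower and was read by 1 probe set. GCNT1, the core 2 enzyme of many cell types, read 504 and 747, a log2 fold of 0.57 that lies just under the threshold of 0.58, and its other probe set had 0.29. GCNT2, which makes the branched I antigen, had a log2 fold of 0.14. Of the 3 GCNT genes above background, GCNT3 was thus past 1.5-fold as reported, and GCNT1 also was with median scaling, on the higher side (0.70). GCNT4 and GCNT7 were not above background.

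Of the 6 MGAT genes above background, whose enzymes branch N-glycans, 1 was higher past 1.5-fold (16.7%, against 7.99% of all genes above background). With median scaling or quantile normalization 2 were, against 12.4% and 8.26% of all genes. These shares rest on few genes. MGAT1 and MGAT2, which open the way to complex N-glycans, had log2 folds of -0.13 and 0.21. MGAT4B and MGAT5, which add outer branches, had -0.22 and -0.32. MGAT4A, whose enzyme adds the same branch as MGAT4B, read 293 and 463 and was 1.58-fold higher, but a second probe set read 200 and 192, so this difference was seen in 1 of 2 probe sets. MGAT5B, known from brain, read 112 and 165, a log2 fold of 0.55 (0.69 with median scaling), in a probe set of the _x_at class, whose probes can bind transcripts of other genes. MGAT3, which adds the bisecting GlcNAc, and MGAT4C were not above background.

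Elongation of the chains needs B3GNT and B4GALT enzymes in turn. Of 6 B3GNT genes above background, 5 had log2 folds below 0, as did 54.4% of all genes above background, and the family median of -0.41 stayed below 0 with median scaling (-0.28) and with quantile normalization. B3GNT3, which extends core 1 O-glycans, read 661 on the parental and 363 on the resistant array (1.82-fold lower). B3GNT2, the main enzyme of poly-N-acetyllactosamine chains, read 1362 and 864 (1.58-fold lower), and 688 and 554 in a further probe set, which did not pass 1.5-fold. With median scaling B3GNT2 had a log2 fold of -0.52 and lay within 1.5-fold.

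B3GNT5, which starts the lacto-series glycolipids, had log2 folds of -0.42, -0.35 and -0.19 in its 3 probe sets. B3GNT9 had -0.40, B3GNT4 had -0.25 and B3GNT7 had 0.25. B3GNT6, the core 3 enzyme of the gut, and B3GNT8 were not above background. All 7 B4GALT genes were above background and lay within 1.5-fold. B4GALT1, the main galactosyltransferase of N-acetyllactosamine, had a log2 fold of -0.19. B4GALT5, a lactosylceramide synthase, had the highest value of the family, 0.47, with 0.37 in its other probe set, and it passed 1.5-fold with median scaling (0.60). B4GALT6 had 4 probe sets above background that were split, from -0.65 to 0.30. The values for B4GALT2, B4GALT3, B4GALT4, B4GALT6 and B4GALT7 ran from -0.32 to 0.10. Of the B3GALT genes, B3GALT6, which builds the linkage region of glycosaminoglycans together with B4GALT7, had 0.04, and B3GALT4, an enzyme of ganglioside synthesis, had -0.37. B3GALT5, which makes the type 1 chains that carry Lewis a, read 79.3 and 34.4 and was not above background, nor were B3GALT1 and B3GALT2.

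Fucosyltransferases end or decorate the chains with fucose. Of 9 measured, 6 were above background, and 2 of these, FUT3 and FUT6, were lower past 1.5-fold (33.3%, against 11.2% of all genes). FUT3, the Lewis blood group enzyme, read 710 on the parental and 319 on the resistant array, and 334 and 119 in its other probe set. FUT6, an enzyme that makes Lewis x and its sialylated form, read 981 and 482. Its other probe sets above background read 879 and 357, 356 and 103, 309 and 63.0, and 236 and 42.8. All 7 of these probe sets of both genes were lower past 1.5-fold, with log2 folds of -1.78 to -1.03, taken against the background level for the 2 that were under it on the resistant array.

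FUT3, FUT5 and FUT6 are close copies of each other and stand next to each other on chromosome 19 in RefSeq. Each bright FUT6 probe set, and 1 of the 2 FUT3 probe sets, is of the _x_at class, so the signals of FUT3 and FUT6 may share transcripts. The counts here take them as 2 members, although the 2 differences may not be independent. The probe set of FUT5, which is of the plain _at class, read 4.61 and 9.07 and was not above background. The remaining fucosyltransferases above background lay within 1.5-fold in the probe set that stood for the gene. FUT8, which adds the core fucose of N-glycans, read 2304 and 1599, and 1398 and 904 in its other probe set. Its log2 folds were -0.53 and -0.63, so that the other probe set was lower past 1.5-fold. FUT2, the secretor enzyme, had -0.58 and, in its other probe set, -0.32. FUT4 had -0.25 and FUT1, which makes the H antigen of red cells, had 0.28. The family median of -0.55 was -0.42 with median scaling and -0.56 with quantile normalization. FUT7 and FUT9, the enzymes of leukocytes and of neural cells, were not above background.

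**Figure D3:**
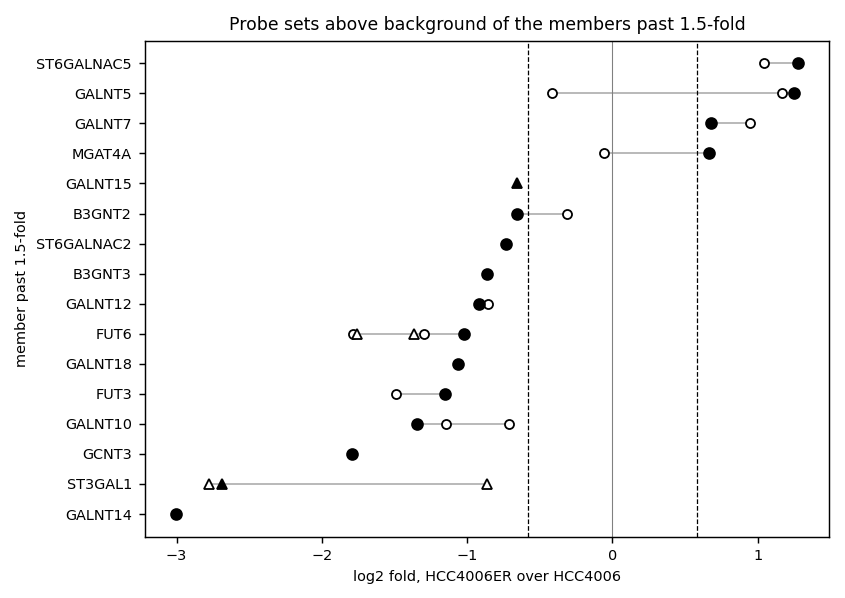
Log2 fold of every probe set above background on at least 1 array for the 16 members past 1.5-fold. Filled symbols are the probe sets used in the text, open symbols the others, triangles are folds computed against a background level, and dashed lines mark 1.5-fold. The probe sets of GALNT5 and MGAT4A lie on both sides of 0, and those of the other members lie on 1 side.

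Sialyltransferases cap galactose, GalNAc or other sialic acids. Of 19 measured, 11 were above background, and of these 2 were lower, 1 was higher and 8 lay within 1.5-fold. The lower and higher shares were 18.2% and 9.09%, against 11.2% and 7.99% of all genes. ST3GAL1, which sialylates the core 1 disaccharide and so forms the sialyl T antigen, read 589, 628 and 167 in its 3 probe sets on the parental array and 36.5, 32.5 and 15.9 on the resistant array. All 3 were above background on the parental array and under it on the resistant array. The gene was at least 6.43-fold lower, and the measured ratio of the same signals corresponds to a log2 fold of -4.01, which rests on a signal in the background range. The other ST3GAL genes lay within 1.5-fold. ST3GAL3, ST3GAL4 and ST3GAL6, which cap N-acetyllactosamine, had log2 folds of 0.23, -0.33 and 0.34. The other probe sets of ST3GAL3 and ST3GAL6 that were above background went the opposite way: that of ST3GAL3 read 165 and 75.0 (at least 1.80-fold lower) and that of ST3GAL6 read 133 and 54.4 (at least 1.45-fold lower). ST3GAL5, the GM3 ganglioside synthase, had -0.11, and ST3GAL2, which shares the core 1 acceptor with ST3GAL1, read 138 and 149 (0.11). A further pair of its probe sets read 86.7 and 127, and 62.7 and 113, above background only on the resistant array.

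ST6GALNAC5, which makes alpha-series gangliosides and is known mainly from brain, read 738 on the parental and 1791 on the resistant array. A second probe set read 212 and 438, so that both lay above background on each array and were over 2-fold higher on the resistant array. ST6GALNAC2, which sialylates the GalNAc of O-glycans, read 235 on the parental and 142 on the resistant array (1.66-fold lower), and ST6GALNAC6, an enzyme of gangliosides and of disialyl Lewis a, read 126 and 24.1 and was at least 1.37-fold lower. ST6GALNAC4, its neighbour on chromosome 9, had log2 folds of 0.24, 0.06 and 0.13 in its 3 probe sets above background. ST6GALNAC1, the sialyl Tn synthase, and ST6GALNAC3 were not above background. ST6GAL1, which adds the terminal sialic acid of N-glycans in most cells, read 424 and 422, and 126 and 93.3 in its other probe set above background, and ST6GAL2 was not above background. None of the 5 measured ST8SIA genes, whose enzymes join sialic acids to each other, was above background, with signals of 3.31 to 63.6 on the parental and 4.88 to 48.7 on the resistant array. ST8SIA1, ST8SIA2, ST8SIA3, ST8SIA4 and ST8SIA5 are these genes. Of the 11 sialyltransferases above background, 6 had log2 folds below 0 and 5 above, from -2.69 to 1.28.

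Over the core 1 steps the genes named here were lower past 1.5-fold or lay within it as reported, and none was higher past it. C1GALT1, the enzyme that makes core 1 from the GalNAc set by the GALNT enzymes, read 2633 and 1419 and was 1.86-fold lower, although 1 of its 3 probe sets above background was higher. Its chaperone C1GALT1C1 had a log2 fold of 0.07. Of the steps that use core 1, GCNT3, ST3GAL1 and B3GNT3 were lower and GCNT1 and ST3GAL2 lay within 1.5-fold. Synthesis of the antigen sialyl Lewis x uses a sialyltransferase of the ST3GAL4 or ST3GAL6 kind and then a fucosyltransferase. ST3GAL4 and ST3GAL6 lay within 1.5-fold, with the probe sets of ST3GAL6 differing in direction. FUT3 and FUT6, whose signals may share transcripts, were lower. FUT4 lay within 1.5-fold, and FUT5, FUT7 and FUT9 were not above background.

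Genes around these enzymes were taken from 4 lists. Of 13 other glycan transferases above background, with their chaperone, 3 were lower (23.1%) and 1 was higher (7.69%). Among all genes above background, these shares were 11.2% and 7.99%. LFNG, a fringe enzyme that extends O-fucose on Notch, was 4.56-fold lower, at 1734 and 380, and UGT8, which makes galactosylceramide, was 2.11-fold lower, besides C1GALT1. UGCG, the glucosylceramide synthase at the head of most glycosphingolipids, was 1.91-fold higher, at 4914 and 9379. Of 20 genes of sugar nucleotide synthesis and transport above background, 4 were lower (20.0%, against 11.2% of all genes) and 0 higher. The shares of these lists rest on few genes. GFUS, the last enzyme in the main route to GDP-fucose, read 4755 on the parental and 2407 on the resistant array (1.98-fold lower), and FPGT of the fucose salvage route was 1.76-fold lower. FCSK, the kinase of the same salvage route, had a log2 fold of 0.34, SLC35C1, the Golgi GDP-fucose transporter, had -0.53, and GMDS, the first enzyme of the main route, had -0.08. GALK2 and GALT, which handle GalNAc and galactose, were 1.66- and 1.54-fold lower. The genes of CMP-sialic acid, namely GNE, NANS, NANP, CMAS and the transporter SLC35A1, lay within 1.5-fold with log2 folds of -0.29 to 0.50.

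Of 12 glycosidases above background, 1 was lower (8.33%, against 11.2% of all genes), namely FUCA1, the lysosomal fucosidase, by 2.10-fold. The other 11 lay within 1.5-fold, among them the sialidases NEU1 and NEU3 with 0.34 and 0.23. The 5 galectins above background, lectins that bind N-acetyllactosamine, all lay within 1.5-fold. LGALS1 and LGALS3 had log2 folds of -0.20 and 0.03.

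Among members above background on both arrays, GALNT14 had the largest lower value and ST6GALNAC5 the largest higher value. FUT3 and FUT6 are the neighbouring pair that was lower together. The regions around the starts of these 4 members are shown. Each runs from 250 bases before the start of the gene to 50 bases after it, 5′ to 3′ on the strand of the gene, from RefSeq on GRCh38.p14. GALNT14 lies at chr2:31138391-31138690 on the minus strand, FUT3 at chr19:5851400-5851699 and FUT6 at chr19:5839653-5839952 on the minus strand, and ST6GALNAC5 at chr1:76867230-76867529 on the plus strand. Capitals mark CACCTG or its reverse complement CAGGTG, the E-box form bound by ZEB and SNAIL factors. The arrays did not measure binding, and a match is only a match of letters.
GALNT14: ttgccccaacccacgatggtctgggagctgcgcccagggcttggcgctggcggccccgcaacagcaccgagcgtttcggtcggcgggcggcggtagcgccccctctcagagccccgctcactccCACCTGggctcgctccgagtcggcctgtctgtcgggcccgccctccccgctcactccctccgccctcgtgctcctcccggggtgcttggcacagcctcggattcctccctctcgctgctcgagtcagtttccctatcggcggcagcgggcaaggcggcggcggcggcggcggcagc
FUT3: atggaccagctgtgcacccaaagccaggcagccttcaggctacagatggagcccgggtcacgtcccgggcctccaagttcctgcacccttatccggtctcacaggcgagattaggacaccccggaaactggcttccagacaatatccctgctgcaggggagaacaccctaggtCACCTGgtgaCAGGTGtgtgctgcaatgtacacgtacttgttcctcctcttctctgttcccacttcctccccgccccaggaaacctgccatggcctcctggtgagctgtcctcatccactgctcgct
FUT6: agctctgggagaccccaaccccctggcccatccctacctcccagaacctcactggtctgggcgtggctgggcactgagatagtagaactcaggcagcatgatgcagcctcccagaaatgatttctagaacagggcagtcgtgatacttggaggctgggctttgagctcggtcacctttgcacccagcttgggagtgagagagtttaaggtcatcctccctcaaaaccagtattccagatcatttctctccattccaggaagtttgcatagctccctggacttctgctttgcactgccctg
ST6GALNAC5: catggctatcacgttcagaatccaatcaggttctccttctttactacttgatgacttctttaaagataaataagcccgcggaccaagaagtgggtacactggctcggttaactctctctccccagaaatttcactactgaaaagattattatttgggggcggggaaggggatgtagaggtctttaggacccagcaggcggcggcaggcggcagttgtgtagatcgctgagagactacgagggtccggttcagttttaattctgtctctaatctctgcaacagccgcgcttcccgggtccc

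The GALNT14 window held the motif once, starting 126 bases before the gene's start, and the FUT3 window held it on both strands, starting 77 and 67 bases before. The FUT6 and ST6GALNAC5 windows did not hold these letters. Of the 9 lower members with a 300-base window in the table, 3 held the motif (GALNT12 being the other one, at 79 bases before its start), and of the 2 higher members 0 did. Among the 31 members within 1.5-fold, 8 held it (25.8%), and the letters occurred in 20.6% of all 27305 windows. The shares of the lower members and of those within 1.5-fold were counted over few windows, and no test was made.

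Agreement between probe sets was the check that the 2 arrays allow. Of the 16 members past 1.5-fold, 10 had at least 2 probe sets above background. In 8 of the 10 all of them went in the same direction, and in 7 all were past 1.5-fold: ST6GALNAC5, GALNT7, ST3GAL1, GALNT10, FUT3, FUT6 and GALNT12. The other 6 members, GALNT14, GCNT3, GALNT18, B3GNT3, ST6GALNAC2 and GALNT15, rested on 1 probe set above background. GALNT14 and GCNT3, with 2 of the 3 largest differences, are among these. Probe sets of a gene share the RNA pools and the arrays, so this agreement leaves out variation between cultures and between hybridizations.

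**Figure D4:**
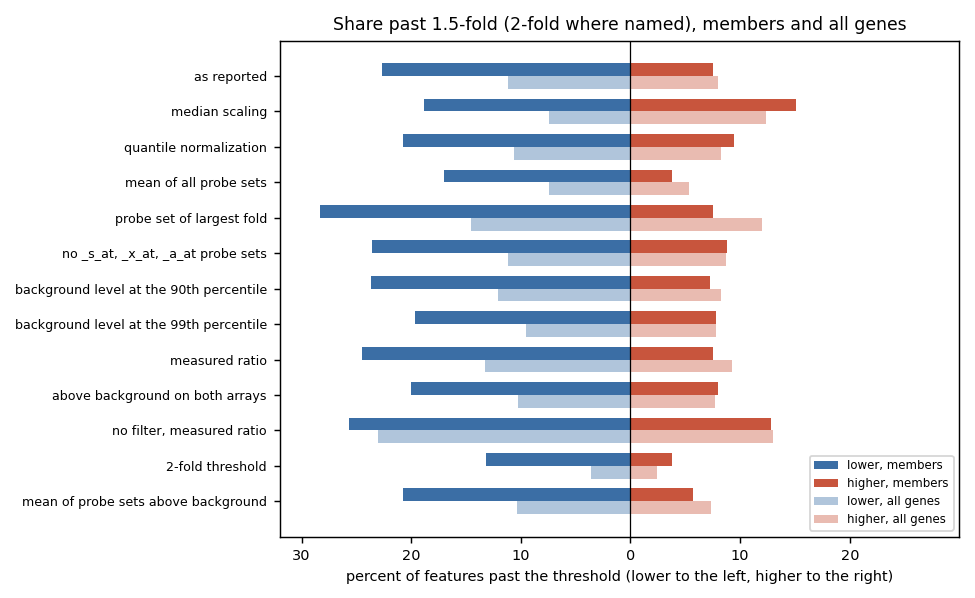
Percent past 1.5-fold (2-fold where named) among the glycosyltransferases (dark bars) and among all genes (light bars), lower on the array labelled HCC4006ER to the left and higher to the right, as reported and under 12 other ways of processing the signals. The lower share of the members is 22.6% against 11.2% as reported, and 25.6% against 23.0% with no filter on dim signals, where the bars come closest.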

How the data were processed

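The deposited values are signal intensities of 2 Affymetrix HG-U133 arrays that the authors computed with MAS5 on a linear scale (GCOS 1.4 is also named in the submitters' processing notes) and scaled so that both arrays had a mean of 500.1 without the extreme 2% at each end. No detection calls were used. The study's methods give 10 μg of RNA per line and the labels 100 ng. Of 54675 probe sets, 41097 had 1 gene symbol in the platform annotation, 1801 had several and 11777 had no entry. Analyses kept to those with 1 symbol. By gene identifier, 41043 of these were found in a RefSeq table of GRCh38.p14, and 0 had another symbol there. GALNT4 (several symbols), B3GALT9 and ST8SIA6 (not listed) were not analysed here.

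Folds, background levels and counts were computed as described in the report, with Python 3.11.15, numpy 2.4.6, pandas 2.3.3 and matplotlib 3.10.9, after the calculation was tested on simulated arrays. No p-value was computed, and precision is limited by the number of arrays. All members were to be named, with values for those above background; of each list, up to 4 genes with the largest fold in each direction past 1.5-fold were to be named, and further list genes were named after their values were seen. Promoter windows were matched by symbol, for 59 of 78 members. The members and lists were chosen with earlier results of these data known.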

Additional observations from a re-analysis of the deposited data

How the results depend on the processing

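The counts as reported were 4 higher and 12 lower members with a median log2 fold of -0.13. With median scaling 8 were higher, with the mean over every probe set of a gene in place of 1 probe set 2 were higher, with no filter on dim signals 10 were higher and 20 lower, and with a 2-fold threshold 2 were higher and 7 lower. The other counts of higher members (3 to 5) and of lower members (8 to 15) stayed within 1.5 times, and the medians lay between -0.32 (probe set with the largest fold) and 0.01 (median scaling). Averaging over probe sets above background was chosen after seeing the data. Of the 16 members past 1.5-fold, 10 stayed past it under every one of up to 9 settings that gave a value; B3GNT2, GALNT5, GALNT15, GALNT18, MGAT4A and ST6GALNAC2 fell within it under 1 to 4 settings, and GALNT15 turned to a log2 fold of 0.18 with background levels at the 99th percentile. The causes were not tested. With 1 array per line, no replicate could be left out and no paired analysis was possible because there is 1 pair. Values near the background levels of 96.2 and 91.6, such as GCNT3, GALNT15 and ST6GALNAC6 on the resistant array, are limited by signal.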
